A study of Mus musculus with 18 samples.

Results

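The adipogenic transcription factors are 10 mouse genes, found by matching the Entrez gene identifiers of both count tables to the symbols *Pparg*, *Cebpa*, *Cebpb*, *Cebpd*, *Ebf1*, *Ebf2*, *Zfp423*, *Klf4*, *Klf5* and *Klf15*. All 10 were present among the 24100 gene rows of each table. C3H/10T1/2 is a mouse mesenchymal progenitor cell (MPC) line that can be turned into fat, cartilage or bone cells. RNA was sequenced from 3 lines of these cells kept in their usual medium without differentiation cues: *Atrx* WT, which had received the Cas9 plasmid PX458-GFP with no sgRNA, and 2 *Atrx* KO clones, G7 made with sg5 and B10 made with sg6. Each line was grown from a single sorted cell after transient transfection. Each gave 3 polyA-selected and 3 rRNA-depleted libraries, 18 in all. Because n counts libraries of a single line, the p-values measure the spread between these libraries, which may be technical, and every contrast of a clone with WT also carries any other difference between those 2 lines. Each clone is referred to by its sgRNA, as sg5 or sg6.

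Fat cell formation is driven by a relay of transcription factors. C/EBPβ and C/EBPδ, encoded by *Cebpb* and *Cebpd*, and the Krüppel-like factor *Klf4* act within hours of the inducing signal, and they switch on *Pparg* and *Cebpa*, which keep each other active and turn on the genes of the fat cell. PPARγ, a nuclear receptor that binds DNA together with a retinoid X receptor, is required for the process. EBF1, EBF2, the zinc finger protein ZFP423 and KLF5 act before or beside these central regulators, and KLF15 rises late in the process.

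The members were read against the whole table. The polyA libraries of WT held 27544833 to 80772108 counts, those of sg6 58918732 to 71896907, and those of sg5 were deeper, at 161036799 to 235346363. The rRNA-depleted libraries held 20135336 to 33187136 counts each. *Atrx* itself fell in both clones, by 1.24 (sg5) and 1.20 (sg6) on the log2 scale in polyA libraries and by 1.39 and 1.31 in rRNA-depleted libraries. The mesenchymal character of the cells was read from 11 mesenchymal and fibroblast markers. Their summed polyA level was 40900 to 46500 CPM (read counts scaled to a common library size with TMM factors) for WT, 51400 to 54700 for sg5 and 59400 to 63200 for sg6. That sum was higher in the clones, as *Pparg* and *Cebpa* were, and its part in their rise was not tested. *Fn1*, at up to 31900 CPM, was the largest part of the sum, and *Nt5e* reached at most 0.355 CPM. *Fn1* and *Pdgfrb* lay above WT in both clones, and *Pdgfra* lay below WT in both. None of the other markers lay on the same side of WT in both clones. The 6 markers of mature fat cells, *Plin1* and *Lep* among them, summed to at most 1.52 CPM in polyA and 1.44 CPM in rRNA-depleted libraries. A gene was called changed when its log2 fold change was beyond 1 and its Benjamini-Hochberg adjusted p, from edgeR's quasi-likelihood test over all features of the table, was below 0.05. In bulk RNA, a change in the number of cells that express a gene and a change in RNA per cell cannot be told apart.

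Both central regulators rose in both clones and in both kinds of library, while *Klf5* fell in both clones in polyA libraries and none of the 3 early inducers was called in any of the 4 comparisons. In sg5 polyA libraries, 2 of 10 members were higher and 1 was lower, against 3.18% of the 15480 genes tested called higher and 6.96% called lower. In sg6, 3 were higher and 1 was lower, against 3.64% and 7.54%. In rRNA-depleted libraries 2 members were higher in each clone, where the whole table gave 3.04% higher in sg5 and 2.16% in sg6. The 1 member called lower there was *Klf5*, beside 4.31% and 3.59% of the table, and nothing is read from that count because *Klf5* entered the test only through WT, where it was high. The median log2 fold change of the members was 0.19 in sg5 and 0.52 in sg6 in polyA libraries, beside 0.00 and -0.01 over all genes tested. When each change was tested against a log2 fold change of 1 instead of 0 (glmTreat), *Pparg* in sg5 (both kinds) and *Klf5* in sg6 polyA libraries kept their calls, and all other member calls were lost.

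**Figure D1:**
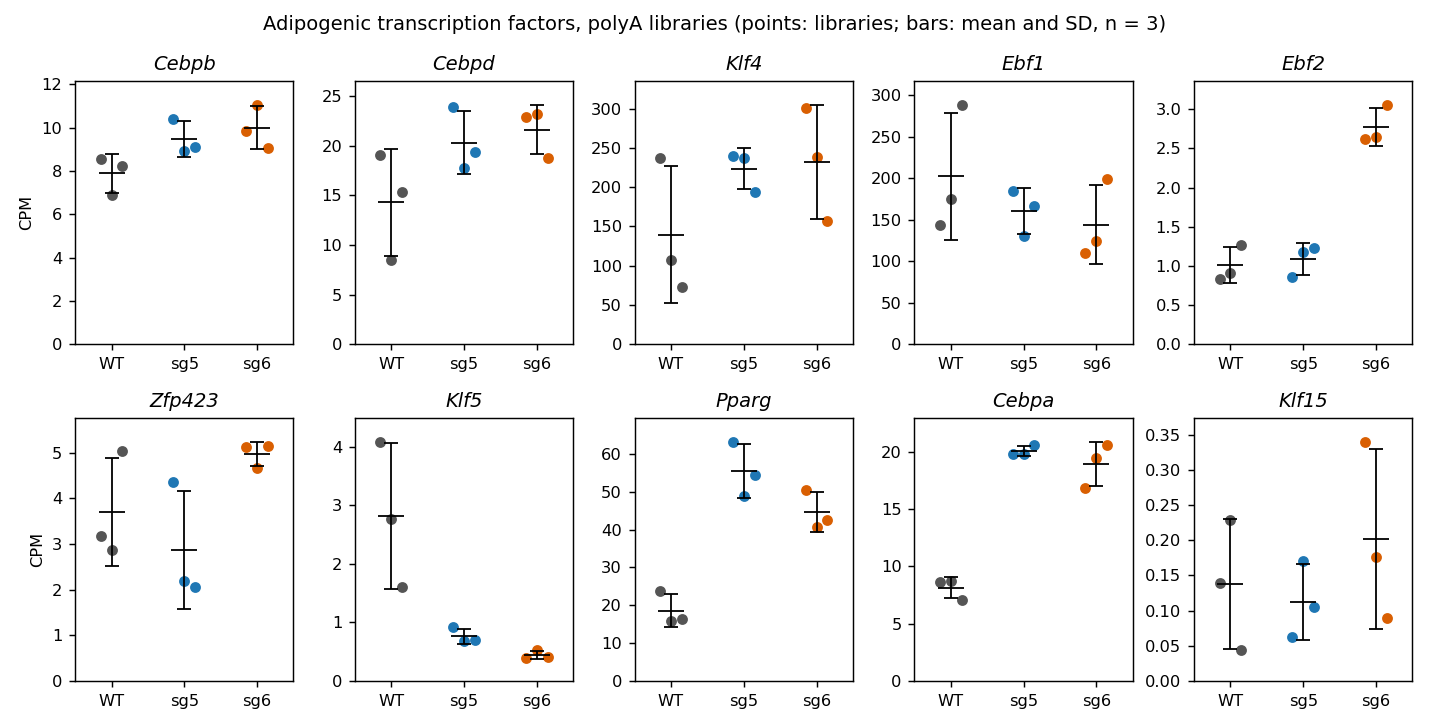
CPM of the 10 factors in each polyA library, 1 panel a gene with its own axis from 0, for WT, sg5 and sg6; points are libraries, and the bars give the mean and SD of 3. The KO points of *Pparg* and *Cebpa* all lie above the WT points, and those of *Klf5* all lie below them.

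*Pparg* lies on chromosome 6 from 115360951 to 115490399 on the plus strand (GENCODE, GRCm38) and has several starts. The downstream start makes PPARγ2, the form typical of fat tissue, and the upstream starts make PPARγ1. The counts are per gene, so the 2 forms are not separated here. RefSeq promoter windows, which run from 250 bases before to 50 after a start (GRCm38.p6), were found for 7 of the 10 members, 11 windows in all, and none was found for *Cebpd*, *Ebf2* or *Klf5*. The 250 bases before 3 starts are printed because they belong to the PPARγ2 start, to *Cebpa*, which rose beside it, and to the early inducer *Cebpb*, which was not called. They are *Pparg* at chr6:115421816-115422065, *Cebpa* at chr7:35119043-35119292 and *Cebpb* at chr2:167688665-167688914, all on the plus strand, written 5′ to 3′. None of the 3 stretches holds an exon of its gene, and the *Pparg* stretch lies inside the gene, between exons of the longer transcripts. Capitals mark every match, on either strand, to the C/EBP sequence TTGCNNAA, the GC box GGGCGG, the KLF box CACCC and the TATA box TATAAA.
Pparg: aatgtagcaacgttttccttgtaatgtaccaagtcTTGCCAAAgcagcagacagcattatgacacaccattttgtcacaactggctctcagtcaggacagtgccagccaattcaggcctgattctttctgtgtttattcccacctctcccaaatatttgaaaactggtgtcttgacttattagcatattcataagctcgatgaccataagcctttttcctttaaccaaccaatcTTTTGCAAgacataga
Cebpa: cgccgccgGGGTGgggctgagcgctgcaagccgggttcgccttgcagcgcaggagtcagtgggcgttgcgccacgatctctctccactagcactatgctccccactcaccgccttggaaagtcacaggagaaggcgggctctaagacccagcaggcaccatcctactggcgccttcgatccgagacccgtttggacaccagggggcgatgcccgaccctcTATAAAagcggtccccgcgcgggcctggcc
Cebpb: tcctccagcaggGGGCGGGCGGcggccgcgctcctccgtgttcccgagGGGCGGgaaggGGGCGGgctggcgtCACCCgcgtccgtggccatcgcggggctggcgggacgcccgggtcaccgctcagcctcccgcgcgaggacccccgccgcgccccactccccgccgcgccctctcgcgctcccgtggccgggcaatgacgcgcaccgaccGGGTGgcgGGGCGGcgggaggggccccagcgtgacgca

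The PPARγ2 window held 2 matches to the C/EBP sequence, with leftmost bases at -215 and -16 from the start, and no GC, KLF or TATA box. The other 2 *Pparg* windows held none to the C/EBP sequence. Over all 32851 promoter windows of the table, 10.8% held at least 1 such match, and of the 11 member windows 2 did, the PPARγ2 window and the first of the 2 *Zfp423* windows. The *Cebpa* stretch held a TATA box at -30 and a KLF box at -242. The *Cebpb* stretch held 5 GC boxes, of which those at -238 and -234 overlap, and 2 KLF boxes. GC boxes were in 7 member windows and in 35.7% of all windows, KLF boxes in 9 and in 57.5%, and TATA boxes in 3 and in 13.6%. The EBF palindrome, TCCC and GGGA with any 2 bases between, was in 0.904% of all windows, and the PPAR-RXR repeat, AGGTCA given 2 times with any 1 base between, in 0.0396%. Both were in 0 of the member windows. The share of G and C was 40.3% in the PPARγ2 window, 80.3% in the first *Pparg* window, 67.3% in that of *Cebpa* and 80.7% in that of *Cebpb*, beside a median of 52.7% over all windows. These matches describe the letters of the windows only.

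Of the early inducers, *Cebpb* is a gene without introns on chromosome 2 from 167688915 to 167690418, on the plus strand. It read 8.56, 6.88 and 8.23 CPM in WT, 10.4, 8.92 and 9.09 CPM in sg5 and 9.87, 11.1 and 9.07 CPM in sg6 polyA libraries. All 6 KO libraries lay above the highest WT library, by little. The log2 fold change was 0.27 ± 0.13 in sg5 (SE; adjusted p = 0.162) and 0.35 ± 0.13 in sg6 (adjusted p = 0.0755), and the 95% intervals ended at 0.56 and 0.64. In rRNA-depleted libraries *Cebpb* read 57.9, 54.5 and 40.8 CPM in WT, 82.9, 54.5 and 67.4 CPM in sg5 and 70.6, 54.9 and 60.8 CPM in sg6, and the groups overlapped. The changes there were 0.42 ± 0.19 and 0.28 ± 0.19 (adjusted p = 0.276 and 0.621). In GENCODE the minus-strand gene *Tmem189* overlaps it, whereas the RefSeq position of that gene ends 27.4 kb away. The strand setting of the counting is not given in the sources used here, so where the models overlap, reads of the pair may not have been told apart.

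*Cebpd*, which encodes the partner of C/EBPβ in the first hours of induction, read 19.0, 8.48 and 15.4 CPM in WT, 23.9, 17.7 and 19.4 CPM in sg5 and 22.9, 23.2 and 18.8 CPM in sg6 polyA libraries. The lowest KO libraries of each clone fell within the WT range. In sg5 the change was 0.52 ± 0.26 (adjusted p = 0.166), and in sg6 it was 0.61 ± 0.26 (adjusted p = 0.105). The rRNA-depleted libraries read 140, 101 and 104 CPM in WT, 199, 156 and 157 CPM in sg5 and 242, 132 and 137 CPM in sg6, so that sg5 lay wholly above WT and sg6 overlapped it. The changes were 0.57 ± 0.22 in both clones (adjusted p = 0.205 and 0.283), and the upper ends of the 4 intervals for *Cebpd* lay between 1.05 and 1.19. *Spidr*, a gene of the opposite strand, overlaps *Cebpd* in both GENCODE and RefSeq, so reads of this pair may not have been told apart either.

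*Klf4*, a factor that binds the *Cebpb* promoter early in induction and is also known from reprogramming, was the most abundant member per kilobase of exon in polyA libraries. It read 238, 108 and 73.1 CPM in WT, 240, 237 and 193 CPM in sg5 and 301, 239 and 156 CPM in sg6. A single WT library, replicate 1, lay among the KO libraries, and the other two lay below them all. The changes were 0.68 ± 0.39 and 0.74 ± 0.39 with adjusted p = 0.232 and 0.188. Without WT replicate 1 they became 1.31 (adjusted p = 0.00976) and 1.36 (adjusted p = 0.00731), past the threshold. In every line *Klf4* was highest in replicate 1 and lowest in replicate 3, and replicate 1 of the clones was kept. That comparison was thus unbalanced, and nothing is read from it. With the replicate number as a block *Klf4* was not called. In rRNA-depleted libraries WT ran from 59.8 to 104 CPM, sg5 from 67.8 to 136 CPM and sg6 from 84.3 to 94.1 CPM, and the changes were 0.27 ± 0.24 and 0.18 ± 0.24 (adjusted p = 0.633 and 0.85).

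The early inducers were thus called in 0 of 12 tests by edgeR, and in 0 by DESeq2. At an unadjusted p below 0.05 the count was 0 of 3 for sg5 and 2 of 3 for sg6 in polyA libraries (*Cebpb* and *Cebpd*), and 2 of 3 for sg5 (the same genes) and 1 of 3 for sg6 (*Cebpd*) in rRNA-depleted libraries. All 12 log2 fold changes were above 0.

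The central regulator *Pparg* read 23.7, 15.9 and 16.3 CPM in WT, 63.3, 48.9 and 54.4 CPM in sg5 and 50.5, 40.6 and 42.6 CPM in sg6 polyA libraries. All KO libraries lay above all WT libraries, and the 2 clones overlapped. The level rose in sg5 (log2 fold change 1.58 ± 0.17, adjusted p = 0.000237) and to 2.41-fold that of WT in sg6 (1.27 ± 0.17, adjusted p = 0.000682). In rRNA-depleted libraries it read 15.4, 8.82 and 7.57 CPM in WT, 70.3, 47.2 and 34.5 CPM in sg5 and 38.9, 25.9 and 25.5 CPM in sg6. Again no KO library reached down to the WT range. There the level was 4.79-fold that of WT in sg5 (2.26 ± 0.31, adjusted p = 0.000691) and 2.85-fold in sg6 (1.51 ± 0.30, adjusted p = 0.0133). The sg6 call in these libraries ended without WT replicate 2 (adjusted p = 0.0681) and without WT replicate 3 (adjusted p = 0.0957). A gene of the opposite strand, Gm44079, overlaps *Pparg*.

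*Cebpa*, on chromosome 7 from 35119293 to 35121928 on the plus strand, encodes C/EBPα, which maintains *Pparg* and makes fat cells sensitive to insulin. It read 8.63, 8.71 and 7.09 CPM in WT, 19.8, 19.8 and 20.6 CPM in sg5 and 16.8, 19.5 and 20.6 CPM in sg6 polyA libraries. The KO libraries were about alike and all above WT. The log2 fold change was 1.30 ± 0.11 in sg5 (2.47-fold, adjusted p = 7.27e-05) and 1.22 ± 0.11 in sg6 (2.33-fold, adjusted p = 9.2e-05). In rRNA-depleted libraries *Cebpa* read 16.2, 12.8 and 11.1 CPM in WT, 27.8, 46.4 and 40.0 CPM in sg5 and 31.4, 25.6 and 38.1 CPM in sg6. The lowest KO library lay well clear of the highest WT library. The changes were 1.51 ± 0.22 (adjusted p = 0.0013) and 1.25 ± 0.22 (adjusted p = 0.00574), and without WT replicate 3 the sg6 change was 1.12 with adjusted p = 0.0503. The antisense gene Gm45091 overlaps its start.

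**Figure D2:**
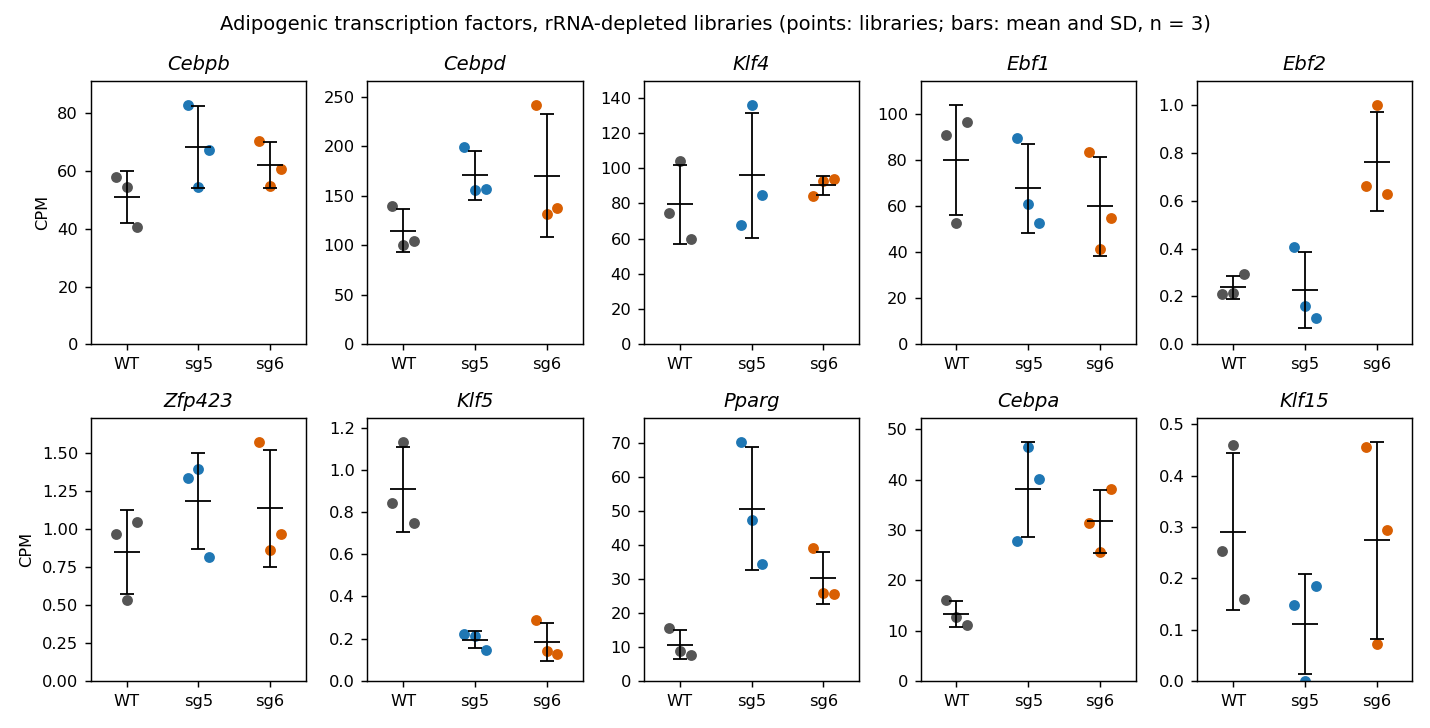
CPM of the 10 factors in each rRNA-depleted library, drawn as for the polyA libraries, with the mean and SD of 3. *Pparg* and *Cebpa* are again higher in all KO libraries, and the 1 library at 0 is *Klf15* in sg5.

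The sizes of change of the early inducers and the central regulators were set side by side, and their difference was not tested. For *Cebpb* the 95% intervals ended at or below 0.82 in all 4 comparisons, below the lower ends for *Pparg* and *Cebpa* in sg5 and sg6 polyA libraries (0.88 to 1.20). In the rRNA-depleted libraries its upper ends, 0.82 in sg5 and 0.69 in sg6, lay below the lower ends of *Pparg* (1.60 and 0.86) and *Cebpa* (1.04 and 0.77). The intervals of *Cebpd* and *Klf4* overlapped those of a central regulator in both clones in polyA libraries. In rRNA-depleted libraries those of *Cebpd*, which ended at 1.05, overlapped *Cebpa* in sg5 and both central regulators in sg6, and those of *Klf4* overlapped neither. Without WT replicate 1 the polyA changes of *Klf4*, 1.31 and 1.36, were as large as those of *Cebpa*, in the unbalanced comparison described above. As a description, the mean log2 CPM of *Pparg* and *Cebpa* minus that of *Cebpb*, *Cebpd* and *Klf4* ran from -1.24 to -0.65 in the WT and from -0.49 to 0.05 in the KO polyA libraries. In the rRNA-depleted libraries it ran from -2.97 to -2.42 in WT and from -1.76 to -1.16 in the clones. The KO and WT ranges were separate in both kinds.

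**Figure D3:**
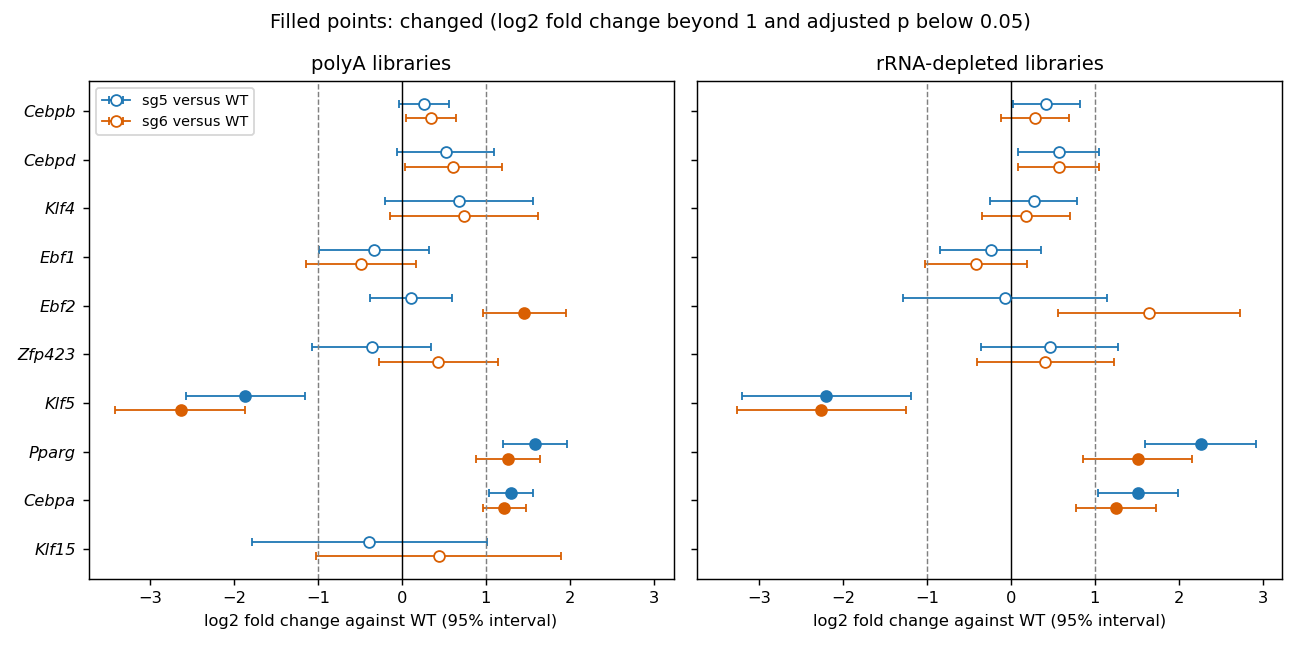
Log2 fold change of each factor against WT with its 95% interval, in sg5 (blue) and sg6 (orange), for polyA libraries (left) and rRNA-depleted libraries (right); filled points were called changed, and dashed lines mark the threshold. The intervals of *Cebpb* end at or below 0.82, and those of *Pparg* and *Cebpa* start at or above 0.77.

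Among the early and commitment factors, *Klf5* moved the other way. KLF5 acts downstream of the early C/EBP factors and helps to switch on *Pparg*, and it is also abundant in epithelia and smooth muscle. The gene lies on chromosome 14 from 99298691 to 99315036. It read 4.09, 2.76 and 1.60 CPM in WT, 0.915, 0.680 and 0.691 CPM in sg5 and 0.399, 0.530 and 0.408 CPM in sg6 polyA libraries, from 23 to 241 counts a library. All KO libraries lay below all WT libraries, and all sg6 libraries below all sg5 libraries. *Klf5* fell by 1.87 in sg5 (SE 0.31, adjusted p = 0.00257) and by 2.64 in sg6 (SE 0.34, adjusted p = 0.00056) on the log2 scale, and the clones differed by 0.77 ± 0.34 (adjusted p = 0.286).

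In rRNA-depleted libraries *Klf5* had 20, 32 and 28 counts in WT, 6, 4 and 4 in sg5 and 7, 4 and 3 in sg6. It passed the filter on low counts only through its 3 WT libraries, so there it had to differ if it was tested. It fell by 2.20 in sg5 (adjusted p = 0.0173) and by 2.26 in sg6 (adjusted p = 0.0166). These calls were lost when a WT library was left out, with adjusted p = 0.0538 (replicate 1) and 0.13 (replicate 2) in sg5 and 0.0581 (replicate 1), 0.131 (replicate 2) and 0.0504 (replicate 3) in sg6. They were also lost without sg5 replicate 2 (0.0623) or 3 (0.0764), and without sg6 replicate 2 (0.0848) or 3 (0.106). The summed level of 6 epithelial markers moved with *Klf5*. In polyA libraries it was 3.11 to 6.29 CPM for WT, 0.903 to 1.72 CPM for sg5 and 0.370 to 0.884 CPM for sg6. The fall was mainly that of *Cdh1* and *Krt14*, at most 4.82 and 1.58 CPM, which were called lower in both clones and both kinds. *Krt8* also fell, *Epcam* and *Krt18* overlapped WT, and *Krt5* lay above WT in sg5, each at most 0.263 CPM. In the clones, *Krt14*, and in rRNA-depleted libraries also *Cdh1*, lay near or under the filter cuts (0.139 CPM in polyA, 0.373 in rRNA-depleted libraries). Those calls rest mainly on WT, and nothing is read from them. The part of these markers in the *Klf5* result was not tested.

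*Ebf2*, known as a factor of preadipocytes and brown fat, rose in only 1 of the clones in polyA libraries. It read 0.838, 0.915 and 1.27 CPM in WT, 0.852, 1.18 and 1.23 CPM in sg5 and 2.62, 2.65 and 3.05 CPM in sg6. The sg5 libraries lay in the WT range and the sg6 libraries above all others. The change was 0.11 ± 0.22 in sg5 (adjusted p = 0.751) and 1.46 ± 0.22 in sg6 (adjusted p = 0.00119), and the clones differed by -1.35 ± 0.21 (sg5 minus sg6, adjusted p = 0.00606). *Ebf2* was the 1 member called between the clones in polyA libraries, where 2.61% of genes were called. The rRNA-depleted libraries held 5, 6 and 11 counts in WT, 11, 3 and 3 in sg5 and 16, 28 and 15 in sg6, and the gene passed the filter through sg6. At those counts sg6 was above the others, with a change of 1.65 ± 0.51 that was not called (adjusted p = 0.126), and a difference between clones of -1.72 ± 0.52 (adjusted p = 0.32). Because sg6 let the gene into the test, these values are not read as support for the polyA result. No member was called between the clones there, against 1.48% of genes. The edgeR count at an unadjusted p below 0.05 was 2 of 9 (*Pparg*, and *Ebf2* with the limit just given), and DESeq2 called 0. *Ebf2* overlaps 5 genes of the opposite strand.

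*Ebf1*, a factor of B cell as well as fat cell development, was after *Klf4* the most abundant member per kilobase in WT polyA libraries. It ran from 143 to 288 CPM in WT, from 130 to 184 CPM in sg5 and from 110 to 199 CPM in sg6, with changes of -0.33 ± 0.29 and -0.49 ± 0.29 (adjusted p = 0.434 and 0.238). The rRNA-depleted changes were -0.24 ± 0.28 and -0.42 ± 0.28 (adjusted p = 0.733 and 0.628). All groups overlapped, and the 4 intervals ran from -1.14 at the lowest to 0.36 at the highest.

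*Zfp423*, a factor that marks committed preadipocytes, read 3.18, 2.86 and 5.05 CPM in WT, 4.36, 2.20 and 2.06 CPM in sg5 and 5.12, 4.68 and 5.15 CPM in sg6 polyA libraries. The sg5 libraries lay below those of sg6, and both overlapped WT. The difference between the clones was -0.80 ± 0.31 (adjusted p = 0.228), and it reached -1.22 with adjusted p = 0.0323 without sg5 replicate 1. Against WT the changes were -0.36 ± 0.32 and 0.43 ± 0.32 (adjusted p = 0.435 and 0.338). In rRNA-depleted libraries *Zfp423* had 15 to 39 counts a library, and the groups overlapped.

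The late factor *Klf15*, which raises *Pparg* and glucose uptake in maturing fat cells, was at the limit of detection. Its polyA counts were 2 to 20 for WT, 10 to 39 for sg5 and 5 to 23 for sg6. The changes were -0.39 ± 0.62 and 0.44 ± 0.65 (adjusted p = 0.69 and 0.652), with intervals from -1.79 to 1.90, so a change of 2-fold either way was not detectable at this depth. In rRNA-depleted libraries it did not pass the filter, with 0 to 13 counts. The 0, in sg5 replicate 2, allows up to 3 counts or 0.161 CPM, counting error only.

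The order of the members by level was given per kilobase of exon. In WT polyA libraries the means ran from *Klf4* at 45.8 and *Ebf1* at 20.7 CPM per kb, which overlapped, through *Pparg* at 6.30, *Cebpb* at 5.24, *Cebpd* at 3.82 and *Cebpa* at 3.09, each overlapping the next. *Zfp423* at 0.659 and *Klf5* at 0.541 overlapped too, and *Ebf2* at 0.145 and *Klf15* at 0.0493 came last. In sg5 *Pparg* was second, at 18.8 CPM per kb, and overlapped *Ebf1* at 16.5. *Cebpa* followed at 7.62, above *Cebpb* at 6.30 without overlap. In sg6 *Pparg* (15.1) and *Ebf1* (14.8) overlapped, as did *Cebpa* (7.19) and *Cebpb* (6.65).

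The rRNA-depleted libraries put the members in another order. In WT *Cebpb* (34.0 CPM per kb), *Cebpd* (30.7) and *Klf4* (26.1) came first and overlapped, followed by *Ebf1* (8.19), *Cebpa* (5.06) and *Pparg* (3.59). In sg5 *Pparg* (17.2) and *Cebpa* (14.4) overlapped each other, and *Cebpa* lay above *Ebf1* (6.93) without overlap. The 2 tables were counted by different tools, and levels across them are given side by side only.

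Whether the KO effect depended on the kind of library was tested in a joint fit of all 18 libraries. It called 0 of 9 members for sg5 and 0 of 9 for sg6, where 0.435% and 0.161% of the 14945 genes passed the adjusted p. The edgeR count at an unadjusted p below 0.05 was 0 for both clones, and DESeq2 called 0 in both. With the replicate number as a block *Pparg* was called in sg5 (-0.65, adjusted p = 0.0399), and with limma-voom *Cebpd* was called in sg6 (0.94, adjusted p = 0.0415). The largest difference relative to its error was *Pparg* in sg5, -0.68 ± 0.35 (polyA minus rRNA-depleted, interval -1.42 to 0.07, adjusted p = 0.568). For *Cebpa* the differences were -0.20 ± 0.25 and -0.05 ± 0.25, with intervals from -0.73 to 0.48.

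Partners and co-regulators of these factors were measured as a list of 19 genes, all tested in polyA libraries. In both clones and both kinds 0 of them were called higher and 1, *Ppargc1a*, was called lower. Over all 15480 genes tested in polyA libraries, 337 were called higher and 849 lower in both clones. Over all 13303 genes tested in rRNA-depleted libraries these counts were 180 and 348. *Ppargc1a* encodes PGC-1α, a coactivator of PPARγ known for mitochondrial genes. Its polyA mean was 82.9 ± 13.2 CPM (SD, n = 3) for WT, 10.0 ± 8.76 for sg5 and 2.37 ± 0.516 for sg6, changes of -3.05 and -5.12 (adjusted p = 0.0028 and 0.000273). *Rxra*, the receptor partner of PPARγ, changed by 0.33 ± 0.09 in sg5 and 0.46 ± 0.09 in sg6 polyA libraries (adjusted p = 0.0224 and 0.00441), under the fold threshold. The medians of the list, 0.10 and -0.01 in polyA and 0.29 and -0.03 in rRNA-depleted libraries, lay beside 0.00 and -0.01 and 0.08 and 0.04 over all genes.

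Of 15 other factors known to favour adipogenesis, 14 were tested in polyA libraries, 0 were called higher and 1 was called lower in both clones. That gene was *Zfp467*, whose mean was 3.52 ± 1.89 CPM for WT, 0.791 ± 0.187 for sg5 and 0.175 ± 0.0673 for sg6 (SD, n = 3). In rRNA-depleted libraries 0 of 12 tested were called in either clone. The counts over all genes are those given beside the partners. Of 17 factors known to restrain adipogenesis, 0 were called in the same direction in both clones in either kind. *Hes1*, a Notch target, was called higher in sg5, by 2.18 in polyA (adjusted p = 0.0474) and 1.16 in rRNA-depleted libraries (adjusted p = 0.0365). In sg6 polyA libraries *Hes1* changed by 2.09 and missed the threshold (adjusted p = 0.0503), and the clones differed by 0.09 (adjusted p = 0.974). *Dlk1*, the preadipocyte surface factor Pref-1, was called lower in sg6 polyA libraries, by -3.71 (adjusted p = 0.004), and differed between the clones by 4.33 (adjusted p = 0.00834).

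Of 20 target genes of PPARγ and C/EBPα in fat cells, 15 were tested in polyA libraries, where 2 were called higher and 1 lower in sg5 and 1 higher and 1 lower in sg6. In rRNA-depleted libraries 12 were tested, of which 4 were called higher in sg5 and 1 in sg6, and 0 lower. Levels ranged widely, with lipid synthesis genes such as *Fasn* reaching 645 CPM in polyA libraries and *Retn* at 0 in all of them. *Lpl*, which encodes lipoprotein lipase, was called higher in both clones and both kinds. Its polyA mean was 9.65 ± 1.01 CPM for WT, 34.5 ± 16.0 for sg5 and 69.4 ± 8.18 for sg6, changes of 1.84 and 2.85 (adjusted p = 0.0015 and 0.000139). In rRNA-depleted libraries the changes were 2.11 and 4.57 (adjusted p = 0.0221 and 0.000102), and the clones differed there (-2.46, adjusted p = 0.0173).

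*Fabp4*, the fatty acid carrier used as a marker of PPARγ activity, was called higher in sg5 and not in sg6 in polyA libraries. Its polyA mean was 0.736 ± 0.450 CPM for WT, 6.83 ± 5.10 for sg5 and 2.52 ± 2.10 for sg6. The changes were 3.28 (adjusted p = 0.0125) and 1.85 (adjusted p = 0.0948), and the difference between the clones was not called (1.43, adjusted p = 0.331). In rRNA-depleted libraries all *Fabp4* levels of both clones lay above those of all WT libraries. *Cd36*, a fatty acid transporter, was called lower in both clones in polyA libraries but passed the filter only through WT, at 0.210 to 0.334 CPM. *Plin4*, a lipid droplet coat gene, averaged 306 ± 37.8 CPM for WT, 578 ± 132 for sg5 and 603 ± 84.9 for sg6 in polyA libraries, changes of 0.92 and 0.98 just under the fold threshold (adjusted p = 0.00522 and 0.00313). In rRNA-depleted libraries it was called in sg5 (1.70, adjusted p = 0.0185) and not in sg6 (1.26, adjusted p = 0.0966). *Dgat2*, which completes triglyceride synthesis, was called in sg5 rRNA-depleted libraries (2.34, adjusted p = 0.0472) and not in sg5 polyA libraries (0.57, adjusted p = 0.184). *Adipoq* was at most 0.0801 CPM in WT and 1.48 CPM in sg5, and *Plin1* was at most 0.0253 CPM in any polyA library. The medians of the targets tested were 0.16 and 0.14 in polyA and 0.65 and 0.50 in rRNA-depleted libraries.

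Markers of other cell types were read beside these results. Summed over 5 endothelial markers, WT polyA libraries reached 1.36 to 2.04 CPM, against 9.46 to 14.2 CPM for sg5 and 8.47 to 11.1 CPM for sg6, and the rise was that of *Tek* (0.962, 11.5 and 9.33 CPM on average), while *Pecam1* fell and *Cdh5*, *Kdr* and *Emcn* overlapped. The 6 blood markers summed to 3.49 to 5.54 CPM. Their part in the rise of *Pparg* and *Cebpa* was not tested. Of the mesenchymal markers, *Thy1* differed between the clones, called lower in sg5 (-1.73) and higher in sg6 (7.03).

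The chromosomes that carry the members were compared as a whole, by the median log2 fold change of their tested genes. In polyA libraries it was -0.11 and -0.12 in sg5 and sg6 on chromosome 6 (*Pparg*, *Klf15*), -0.03 and -0.04 on chromosome 7 (*Cebpa*), and 0.23 and 0.22 on chromosome 14 (*Klf5*, *Ebf2*). In the same order it was 0.19 and 0.13 on chromosome 2 (*Cebpb*), -0.26 and -0.16 on chromosome 11 (*Ebf1*), and 0.11 and 0.06 on chromosome 16 (*Cebpd*). Chromosome 8 (*Zfp423*) had 0.27 and 0.28, and chromosome 4 (*Klf4*) had -0.03 and -0.06. The part of these shifts in the changes of the members was not tested. With each member's change taken relative to its chromosome's median, an alternative chosen after the data were seen, the same members were called in all 6 comparisons. The adjusted p was that of the uncentred test, so only the fold threshold could change a call.

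Genes within 500 kb of *Pparg* and *Cebpa* were also read, a choice made after the data were seen. Of 16 other genes tested around *Pparg* in polyA libraries, 0 were called higher and 3 lower in both clones. *Timp4*, among those called lower, passed the filter through WT, at 0.600 to 0.873 CPM, so nothing is read from its call. Over all 15480 genes tested these counts were 337 and 849. In rRNA-depleted libraries 0 of 12 were called in both clones, beside 180 higher and 348 lower of all 13303 genes tested. *Syn2*, the synapsin gene 78.3 kb upstream, was called lower in polyA libraries (-1.59 and -1.99, adjusted p = 0.00275 and 0.00102), whereas the rRNA-depleted values were 0.11 and -0.58, not called (adjusted p = 0.952 and 0.764).

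Around *Cebpa*, 1 of 11 other genes tested was called higher in both clones, in both kinds, and 0 were called lower, to be read beside the same counts over all genes. It was *Lrp3*, a lipoprotein receptor-related gene 79 kb downstream, at chromosome 7 from 35200878 to 35217392. *Lrp3* had 0, 2 and 0 counts in WT, 1054, 1012 and 832 in sg5 and 420, 282 and 308 in sg6 polyA libraries. In rRNA-depleted libraries it had 0, 0 and 1 counts in WT, 69, 59 and 52 in sg5 and 68, 40 and 22 in sg6. WT libraries were thus at or near 0 and every KO library far above. *Lrp3* passed the filter only through the clones, where it was high, so it had to differ if it was tested. Nothing is read from its calls or from their repeat in both kinds. *Cebpg*, the other C/EBP gene of the cluster, 62.7 kb upstream, changed by 0.55 and 0.61 in polyA libraries (adjusted p = 0.0142 and 0.00731), under the fold threshold, with every KO library above WT. *Gpatch1*, at 117 kb downstream, changed by -0.11 and -0.03.

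**Figure D4:**
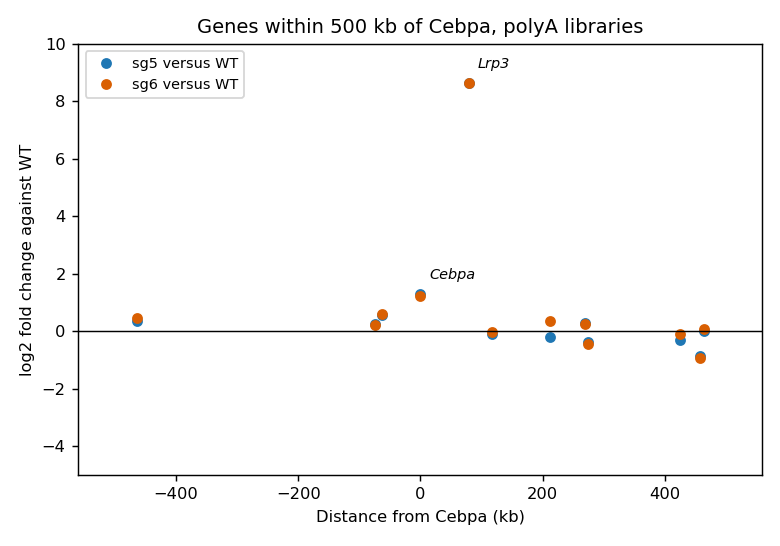
Log2 fold change against WT in polyA libraries of the genes within 500 kb of *Cebpa* by distance in kb, for sg5 (blue) and sg6 (orange), with names for *Cebpa* and for the gene called in both clones. *Lrp3*, at 79 kb from *Cebpa*, is the highest pair of points, and its height depends on the prior count because WT libraries held at most 2 counts.

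The genes most like the central regulators were ranked by Pearson's r of log2 CPM, centred within each kind of library, over the 18 libraries and 11371 genes. These libraries share 3 lines, so a gene that steps between WT and the clones ranks high. For *Pparg* they were *Osbpl1a* (r = 0.985), *Rragd* (0.977), *Wdr7* (0.975), *Ccny* (0.974) and *Cndp2* (0.973), of which all but *Rragd* lie on chromosome 18, where the median change was 0.40 in sg5 and 0.35 in sg6. For *Cebpa* they were *Elp2* (r = 0.973), *Tmem47* (0.969), *Isca2* (0.966), *Ube2e3* (0.966) and *Paqr4* (0.965), on 5 different chromosomes. The first of them, *Elp2*, lies on chromosome 18 too. The polyA changes of these 10 genes ran from 0.42 to 3.34. *Pparg* and *Cebpa* had r = 0.88 with each other, *Pparg* had 0.79 with both *Cebpb* and *Cebpd*, and *Cebpa* had 0.61 and 0.62 with these.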

How the data were processed

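The 10 factors, their roles and the other gene lists were chosen with earlier results of these data known. PolyA reads were cleaned with Rfastp and quantified on mm10 genes with Salmon (0.8.2 in the submitters' notes) and tximport, and the authors deposited estimated counts per gene without normalization. Reads of the rRNA-depleted libraries were aligned to mm10 with STAR 2.27.10a, and the authors deposited TElocal counts of genes and TE loci. The strand setting is not given in the sources used here. The deposited counts are whole numbers, and rounding changed none.

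Symbols came from RefSeq for 24045 of 24100 gene rows. Features were filtered with filterByExpr (minimum count 10), scaled by TMM and tested with edgeR 4.0.16 (quasi-likelihood) in R 4.3.3, in a single fit of the 9 libraries of a kind. The rRNA-depleted fit held 56086 features, TE loci included, and CPM is on the TMM scale. SE is the log2 fold change divided by the square root of F. Replicates of a group differed by more than sampling noise in each pair. The fits were tested on simulated data. The alternatives were DESeq2 1.42.0, median-of-ratios size factors, no filter, 10 counts in every library, a replicate block, only the 2 groups compared, the adjusted p alone, glmTreat, thinned counts, no TE loci, limma-voom 3.58.1 for the joint fit, and each library left out. All 10 members are named. Genes named from the lists were those called the same way in both clones, at most 5 a list and direction. The 5 genes most like *Pparg* and *Cebpa* were taken among genes tested in both kinds with a mean polyA log2 CPM of at least 1. *Hes1*, *Dlk1*, *Fabp4*, *Rxra*, *Plin4*, *Dgat2*, *Fasn*, *Retn*, *Adipoq*, *Plin1*, *Thy1*, the genes near *Pparg* and *Cebpa* and the chromosome medians were chosen after their values were seen. Positions came from GENCODE M21 and RefSeq (GRCm38). A result near *Pparg* is not reported here. Figures were drawn with matplotlib.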

Additional observations from a re-analysis of the deposited data

Results flagged for a closer look

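*Ebf2* differed between the 2 KO clones in polyA libraries, by a log2 fold change of -1.35 (sg5 minus sg6, adjusted p = 0.00606, edgeR's quasi-likelihood test), with the 3 sg6 libraries above the 6 others. The same difference in rRNA-depleted libraries was -1.72 and was not called (adjusted p = 0.32). There the gene passed the filter through sg6, so nothing is read from that value.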

How the results depend on the processing

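The counts of members called were set again under each alternative. With glmTreat, which asks for a log2 change beyond 1, 1 member was called in sg5 (*Pparg*), 1 in sg6 (*Klf5*) and 0 between the clones in polyA libraries, and 1 (*Pparg*) and 0 in sg5 and sg6 in rRNA-depleted libraries. Leaving out each library in turn gave 3 to 4 members in sg5, 4 to 5 in sg6 and 1 to 2 between the clones in polyA libraries, and 2 to 3 in sg5, 0 to 3 in sg6 and 0 between the clones in rRNA-depleted libraries. The sg6 count there was 1 (*Cebpa*) without WT replicate 2 and 0 without WT replicate 3. With the replicate block, the difference between kinds of library called 1 member in sg5, *Pparg* (-0.65, adjusted p = 0.0399), and with limma-voom 1 in sg6, *Cebpd* (0.94, adjusted p = 0.0415). The block changed no other count. It was kept out of the main tests because the methods of the study name no block. Libraries of the same number did deviate together in part. Their mean r was 0.26 (lowest 0.026) over 9 polyA pairs and 0.294 (lowest -0.229) over 9 rRNA-depleted pairs. Pairs of different numbers had a mean r of -0.127 and -0.145. Deviations were taken from the group means, so these values largely follow from the same-number values and add no contrast. In 15 of 18 and 12 of 18 library-to-group comparisons the closest library had the same number, out of 3 to choose from. The main tests leave any such pairing out. With at least 10 counts in every library *Klf5* was not tested in rRNA-depleted libraries, and 2 members were called in each clone. Under every other alternative the counts stayed within 1.5 times. No called change reversed. Depth limits *Klf15*, and in rRNA-depleted libraries *Ebf2*, *Klf5* and *Zfp423*.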

Other observations

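In some groups, levels of *Klf4* and *Ebf1* varied between libraries of 1 line in opposite ways. Among the WT polyA libraries, the one with the highest *Klf4* (238 CPM) had the lowest *Ebf1* (143 CPM), and the one with the lowest *Klf4* (73.1 CPM) had the highest *Ebf1* (288 CPM). In sg6 the same held, with 301 beside 110 CPM and 156 beside 199 CPM. In WT rRNA-depleted libraries the pairs were 104 beside 52.6 CPM and 59.8 beside 96.4 CPM. In sg5 polyA libraries it did not hold, with 240 beside 184 CPM. Over all 18 libraries, centred within each kind, Pearson's r of the log2 CPM of the 2 genes was -0.74, a description over libraries that share lines. The values were not centred by line, so differences between the lines enter this r.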
